A study of Mus musculus with 16 samples.

Results

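The genes followed here are the 9 genes of itaconate synthesis, itaconate breakdown and succinate oxidation in primary mouse hepatocytes: *Irg1* (listed as *Acod1*), *Clybl*, *Sucla2*, *Suclg1*, *Suclg2*, *Sdha*, *Sdhb*, *Sdhc* and *Sdhd*. They were chosen by gene symbol, and each matched 1 of the 55450 genes in the count table. RNA was sequenced from hepatocytes of wild-type mice cultured in serum-containing medium and left untreated, or given 10 mM sodium itaconate, a chemically defined mixture of fatty acids and cholesterol diluted 1 in 10, or both overnight. There were 4 libraries in each of the 4 groups, named by the replicate letters A to D. Whether a letter stands for a mouse, a culture or a day is not given in the sources used here, so the p values measure only the spread between these libraries, which may be technical.

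Itaconate is made in mitochondria by the enzyme encoded by *Irg1*, which removes a carboxyl group from the citric acid cycle intermediate cis-aconitate and is best known from activated macrophages. To be broken down, itaconate is first joined to coenzyme A, a reaction that succinyl-CoA ligase can carry out, and itaconyl-CoA is then hydrated to citramalyl-CoA, which the lyase encoded by *Clybl* splits into acetyl-CoA and pyruvate. Succinyl-CoA ligase pairs the alpha subunit SUCLG1 with either SUCLA2, for the ADP-forming enzyme, or SUCLG2, for the GDP-forming enzyme. Succinate dehydrogenase, made of the subunits SDHA to SDHD, oxidizes succinate to fumarate and passes the electrons to the respiratory chain as complex II, and itaconate is a competitive inhibitor of it.

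With itaconate the log2 differences of the 8 members that could be tested ran from −0.21 to 0.12, and 0 of the 8 passed the threshold without lipid (4.91% of all genes tested passed) or with it (2.58%). In each lipid comparison 2 of the 8 passed, under the share of all genes tested (47.5%, and 47.0% in the presence of itaconate). *Suclg2* was lower in lipid-treated than in untreated hepatocytes and lower in lipid + itaconate-treated than in itaconate-treated hepatocytes. *Clybl* was higher with lipid in the absence of itaconate, and *Sucla2* was lower with lipid in the presence of itaconate, calls that were lost in 4 and 5 of 23 alternative fits. The 4 genes of succinate dehydrogenase did not pass the threshold in any comparison of the edgeR model.

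The upstream sequences of the 3 genes that passed the threshold in a lipid comparison are shown to give the DNA before their start sites. Each is the 250 bases before the RefSeq transcription start on GRCm38.p6, written 5′ to 3′ on the strand of the gene, with matches to the motifs described after them in capitals. That of *Clybl* is chr14:122181444-122181693 on the plus strand, that of *Suclg2* is chr6:95718847-95719096 on the minus strand, and that of *Sucla2* is chr14:73552536-73552785 on the plus strand. The last lies inside the interval of *Sucla2* in the GENCODE annotation, which begins farther upstream than the RefSeq start.
*Clybl*: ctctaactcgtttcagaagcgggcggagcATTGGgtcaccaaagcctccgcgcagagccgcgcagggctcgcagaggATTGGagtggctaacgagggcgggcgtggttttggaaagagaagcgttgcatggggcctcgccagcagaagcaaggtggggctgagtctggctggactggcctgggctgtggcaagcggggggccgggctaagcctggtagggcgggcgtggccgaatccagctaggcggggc
*Suclg2*: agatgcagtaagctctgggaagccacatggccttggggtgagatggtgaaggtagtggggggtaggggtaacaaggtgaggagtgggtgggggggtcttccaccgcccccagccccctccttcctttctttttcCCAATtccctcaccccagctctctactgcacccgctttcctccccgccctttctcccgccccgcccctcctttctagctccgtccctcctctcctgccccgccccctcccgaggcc
*Sucla2*: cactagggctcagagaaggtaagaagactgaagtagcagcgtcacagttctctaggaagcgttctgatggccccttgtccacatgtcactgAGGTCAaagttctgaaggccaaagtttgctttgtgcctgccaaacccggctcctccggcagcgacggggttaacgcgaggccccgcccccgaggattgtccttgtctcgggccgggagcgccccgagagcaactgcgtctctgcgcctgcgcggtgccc

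Of the 9 genes, 8 had a promoter in the RefSeq table (250 bases before to 50 after the start), and *Sdhc* did not. The motifs searched on both strands of 32851 mouse promoters of this kind were GCATGCGC (the core of the NRF1 motif, in 2.71% of promoters), CCGGAAG (ETS factors, 8.86%), TCAAGGTCA (estrogen-related receptors, 0.423%), AGGTCA (the half-site of nuclear receptors, which is contained in the estrogen-related receptor motif, 16.3%), CCAAT (37.4%), AAGATGG (YY1, 6.34%) and TATAAA (13.6%). The promoter of *Clybl* held CCAAT on the opposite strand 221 and 173 bases before the start (counted at the first base of the match), and AAGATGG 30 bases after it. That of *Suclg2* held CCAAT 116 bases before the start, and that of *Sucla2* held AGGTCA 159 bases before it. The promoter of *Sdhb* held the NRF1, ETS, half-site and CCAAT motifs, that of *Sdhd* the ETS motif and that of estrogen-related receptors, and that of *Sdha* the CCAAT motif. The promoter of *Irg1* held the half-site and CCAAT motifs and was the only one of the 8 with TATAAA, and that of *Suclg1* held none of the 7 motifs. GC content was 67.3% for *Clybl*, 67.7% for *Suclg2* and 62.0% for *Sucla2*, and likewise 60.0% to 62.7% for *Sdha*, *Sdhb* and *Sdhd*, against 51.0% for *Suclg1*, 47.0% for *Irg1* and a median of 52.7% over all promoters. These matches describe the letters only and were not tested for binding.

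The libraries held 22346049 to 35512004 expected counts (median 27719372). Levels are given in CPM, counts scaled to a common library size by edgeR's TMM method. Comparisons come from 1 edgeR quasi-likelihood model of all 16 libraries with treatment and replicate letter as terms. A gene was called at a Benjamini-Hochberg adjusted p under 0.05 over the 11675 genes that averaged 1 CPM or more. Differences between libraries of a group exceeded counting noise in all 24 pairs, by 9.14 to 57.0 times (chi-square per gene) in 21 pairs and by 94.9 to 131 times in the 3 pairs with lipid + itaconate replicate B, which stood apart. The members' values without it are given where they moved by over 1.5 times or changed sign. All 10 hepatocyte markers were detected, with summed levels per library of 30911 to 50285 CPM. All 6 neutrophil markers had means under 1 CPM, and 1 of them was at 0 in all libraries. The sums of 6 endothelial and 6 stellate cell markers were 10.7 to 23.6 CPM and 17.0 to 25.0 CPM. The stellate sum was nearly all from *Reln* (group means of 19.1 to 21.5 CPM), and the other 5 stellate markers averaged under 1 CPM over all libraries. The 6 cholangiocyte markers summed to 831 ± 227, 735 ± 189, 485 ± 125 and 494 ± 115 CPM (SD, n = 4) in untreated, itaconate-treated, lipid-treated and lipid + itaconate-treated hepatocytes, nearly all from *Spp1* and *Sox9*, while *Krt19*, *Krt7* and *Epcam* had means under 1 CPM and *Cftr* was at 0. This sum was lower in both groups with lipid, and its part in the lipid differences of the members was not tested.

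Levels between genes were compared only per length, as TPM, a level corrected for depth and for the length of the gene, here that of the union of its exons. In untreated hepatocytes *Sdhd*, a membrane anchor of complex II, was highest at 278 ± 14.3 TPM (SD, n = 4). *Sdha*, the flavoprotein that holds the catalytic site, followed at 184 ± 12.7 TPM, and *Sdhb*, the iron-sulfur subunit, at 99.8 ± 1.43 TPM. *Suclg2* at 77.5 ± 3.67 TPM and *Sdhc*, the other membrane anchor, at 75.1 ± 5.39 TPM did not differ beyond their spread. *Suclg1* was at 58.6 ± 1.32 TPM, *Sucla2* at 51.7 ± 2.52 TPM and *Clybl* at 40.0 ± 1.34 TPM. *Irg1* came last, at 0.768 ± 0.502 TPM. The first 3 places and the last 2 were the same in all 4 groups, while *Sdhc* and *Suclg2* exchanged places in both groups with lipid.

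The middle of this order rested on the length used. With the length of the principal transcript in place of the union of exons, *Suclg1* rose to 138 TPM and the fourth place in untreated cells. *Sdhc* fell to 59.7 TPM and the seventh place. *Sdhd* (215 TPM), *Sdha* (202 TPM) and *Sdhb* (152 TPM) stayed ahead of the others. The lead of *Sdhd* over *Sdha*, 278 against 184 TPM by the union of exons, narrowed to 215 against 202 TPM.

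**Figure D1:**
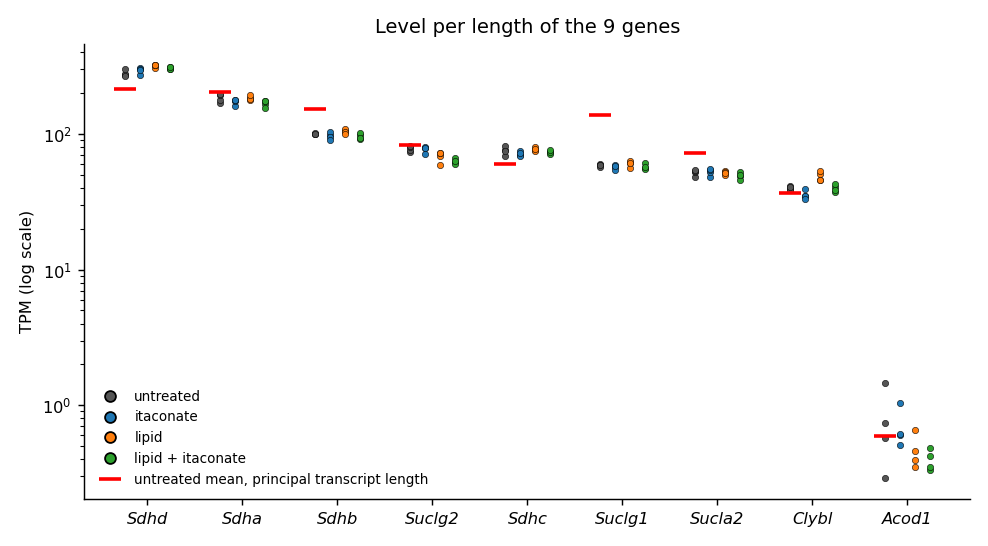
Level per length (TPM, log scale) of the 9 genes, with 1 point per library, 4 libraries per treatment and colours for the treatments. The red bars give the untreated mean with the length of the principal transcript. By the union of exons *Sdhd* leads at 278 TPM in untreated cells, and *Irg1* lies far under the other 8 genes at 0.768 TPM.

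*Irg1* (ENSMUSG00000022126.6, GRCm38 chromosome 14, 103046977 to 103056573, plus strand) was counted at 17, 42, 8 and 16 in untreated replicates A to D and at 18, 29, 14 and 22 with itaconate. With lipid the counts were 16, 10, 11 and 10, and with lipid + itaconate they were 12, 14, 10 and 11. The highest values were those of replicate B in the groups without lipid, and all groups overlapped. It averaged 0.590 CPM, too low for the filter, and was therefore taken from the same edgeR model without a filter and is not among the genes counted as tested. That fit gave *Irg1* 8521 degrees of freedom, against 15.7 for the other members in the main fit. At a given standard error this makes its intervals narrower and its p values smaller than theirs. The log2 fold change was −0.04 (95% interval −0.75 to 0.67, adjusted p = 1) with itaconate and −0.17 (−0.96 to 0.62, adjusted p = 0.999) with itaconate in the presence of lipid, the latter −0.11 without lipid + itaconate replicate B. With lipid it was −0.67 (−1.42 to 0.08, adjusted p = 0.251), and with lipid in the presence of itaconate −0.80 (−1.54 to −0.06, unadjusted p = 0.0341 in edgeR, adjusted p = 0.127), the latter lower in all 4 letters. Across the alternatives the first lipid difference ran from −0.91 to −0.34 on the log2 scale, and no alternative brought an adjusted p of *Irg1* under 0.05.

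Since *Irg1* is a macrophage gene, the markers of macrophages and Kupffer cells were measured beside it. Of the 10 markers, 7 had means of at least 1 CPM, and their summed level per library was 164 to 277 CPM in untreated, 143 to 229 CPM in itaconate-treated, 233 to 338 CPM in lipid-treated and 207 to 325 CPM in lipid + itaconate-treated hepatocytes. *Cd68*, a lysosomal protein gene, gave 86.9%, 82.7%, 92.3% and 93.3% of these sums. Without it the other 9 markers summed to 24.1 to 36.6 CPM, 25.2 to 39.6 CPM, 18.8 to 28.0 CPM and 13.4 to 23.6 CPM in the same order. The sum without *Cd68*, chosen after the values were seen, was thus lower on average in both groups with lipid, like the counts of *Irg1*. Of these 9 markers, 7 had a lower mean in lipid-treated than in untreated hepatocytes, and 9 in lipid + itaconate-treated than in itaconate-treated hepatocytes. *Marco*, a scavenger receptor, had means of 10.0, 12.4, 6.26 and 5.59 CPM in the same order of groups, and *Csf1r*, a growth factor receptor, of 2.51, 2.61, 2.59 and 1.47 CPM. In bulk RNA fewer cells of a type and less RNA per cell cannot be told apart, and the part of these cells in the counts of *Irg1* was not tested.

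**Figure D2:**
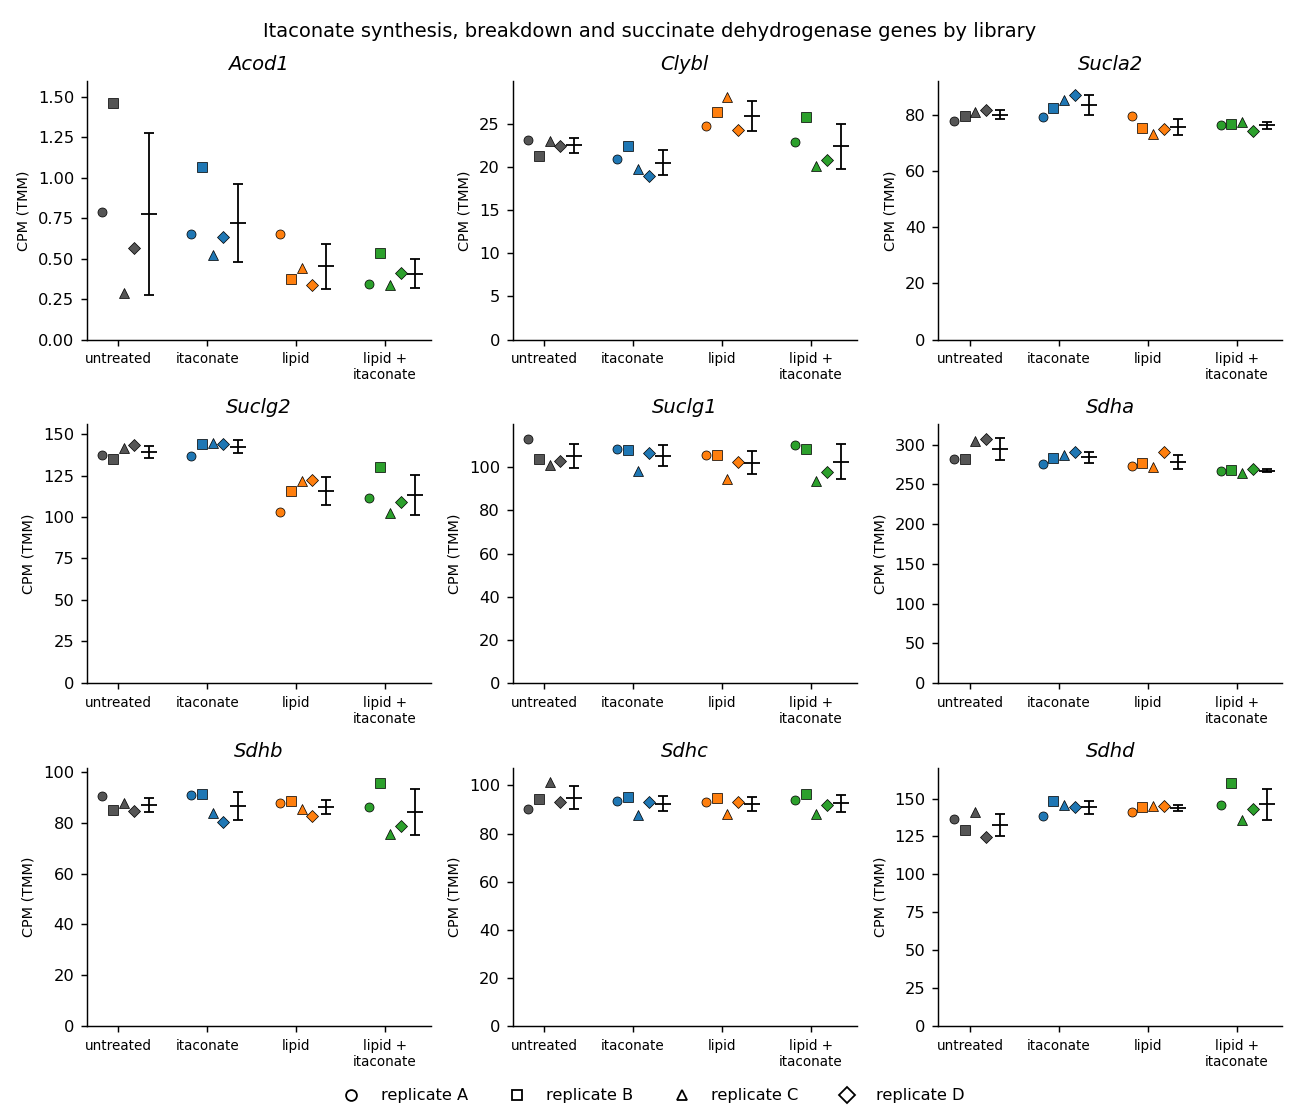
Levels (CPM after TMM scaling, linear axes from 0) of the 9 genes in every library by treatment, with marker shapes for the replicate letters and the mean ± SD of the 4 libraries beside them. *Suclg2* lies at 135 to 145 CPM in the 8 libraries without lipid and at 103 to 130 CPM in the 8 with it.

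*Clybl* (ENSMUSG00000025545.10, chromosome 14, 122181704 to 122402234, plus strand), the lyase of the last step of itaconate breakdown, was at 23.1, 21.3, 23.0 and 22.4 CPM in untreated replicates A to D. It was at 20.9, 22.4, 19.8 and 18.9 CPM with itaconate. Lipid-treated libraries were at 24.7, 26.4, 28.1 and 24.3 CPM, and lipid + itaconate-treated libraries at 22.8, 25.8, 20.1 and 20.8 CPM. All 4 lipid-treated libraries lay above all 4 untreated ones, and the groups overlapped in the other 3 comparisons.

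Between untreated and lipid-treated hepatocytes *Clybl* rose by 0.20 on the log2 scale (SE 0.074, adjusted p = 0.0344 in edgeR), with a rise in all 4 letters. This call rested on single libraries: the adjusted p was 0.154 without untreated replicate B, 0.144 without lipid replicate C and 0.0626 without lipid replicate D. Without the replicate letter in the model it was 0.0588. In the presence of itaconate the lipid difference was 0.12 (SE 0.074, adjusted p = 0.179), positive in all 4 letters, and 0.06 without lipid + itaconate replicate B. With itaconate the difference was −0.14 (95% interval −0.29 to 0.02, adjusted p = 0.308) in the absence of lipid, negative in 3 of 4 letters. In the presence of lipid it was −0.21 (−0.37 to −0.06, unadjusted p = 0.0108 in edgeR, adjusted p = 0.142), negative in all 4 letters. No alternative brought the adjusted p of this last difference under 0.05 (range 0.0862 to 0.400).

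*Suclg2* (ENSMUSG00000061838.7, chromosome 6, 95473009 to 95718800, minus strand), the beta subunit of the GDP-forming ligase, was at 137, 135, 141 and 143 CPM in untreated and at 137, 144, 145 and 144 CPM in itaconate-treated replicates A to D. It was at 103, 116, 121 and 122 CPM in lipid-treated and at 112, 130, 103 and 109 CPM in lipid + itaconate-treated replicates. Every library with lipid lay under every library without it. The gene fell by 0.27 on the log2 scale between untreated and lipid-treated hepatocytes (SE 0.061, adjusted p = 0.00194 in edgeR) and by 0.33 between itaconate-treated and lipid + itaconate-treated hepatocytes (SE 0.061, adjusted p = 0.000442), lower in all 4 letters in both. In all 23 alternatives it passed the threshold in both comparisons, with adjusted p up to 0.00974 and 0.00326. Without lipid + itaconate replicate B the second difference was −0.40. The itaconate differences were 0.03 (95% interval −0.10 to 0.16) without lipid and −0.03 (−0.16 to 0.10) with it, the latter −0.10 without lipid + itaconate replicate B. *Suclg2* was the only member with counts that were not whole, in 15 of 16 libraries, so some of its reads were shared with another feature.

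*Sucla2* (ENSMUSG00000022110.13, chromosome 14, 73525319 to 73596142, plus strand), the beta subunit of the ADP-forming ligase, was at 77.9, 79.5, 81.0 and 81.6 CPM in untreated and at 79.2, 82.3, 85.4 and 86.9 CPM in itaconate-treated replicates. It was at 79.5, 75.2, 73.0 and 75.0 CPM with lipid and at 76.3, 76.9, 77.3 and 74.3 CPM with lipid + itaconate. Of the 4 comparisons, only that of lipid + itaconate-treated with itaconate-treated hepatocytes had groups that did not overlap. In it the gene fell by 0.13 on the log2 scale (SE 0.043, adjusted p = 0.0188 in edgeR) in all 4 letters. The adjusted p of this fall was 0.0868 without a filter, 0.0534 with the 8 libraries alone, 0.0758 without itaconate replicate D, 0.0747 without lipid + itaconate replicate D and 0.0624 without itaconate replicate C. Between untreated and lipid-treated hepatocytes the difference was −0.08 (adjusted p = 0.135), negative in 3 of 4 letters, and it passed the threshold only without lipid replicate A (−0.11, adjusted p = 0.0457). With itaconate it was 0.06 (95% interval −0.03 to 0.15, adjusted p = 0.430) without lipid and 0.01 (−0.08 to 0.10) with it, the latter −0.00085 without lipid + itaconate replicate B.

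*Suclg1* (ENSMUSG00000052738.14, chromosome 6, 73248382 to 73276911, plus strand), the alpha subunit that both ligases share, was at 105 ± 5.44, 105 ± 4.89, 102 ± 5.22 and 103 ± 8.14 CPM (SD, n = 4) in untreated, itaconate-treated, lipid-treated and lipid + itaconate-treated hepatocytes. Its log2 differences were 0.0014 and 0.0034 with itaconate and −0.04 and −0.04 with lipid, against standard errors of 0.040. Without lipid + itaconate replicate B the differences in the comparisons with that group were −0.02 for itaconate and −0.06 for lipid.

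The ratio of the counts of the alternative beta subunits within a library does not depend on library size. It was 0.568, 0.589, 0.573 and 0.570 *Sucla2* counts per *Suclg2* count in untreated and 0.580, 0.571, 0.590 and 0.603 in itaconate-treated replicates A to D. With lipid it was 0.770, 0.649, 0.601 and 0.615, and with lipid + itaconate 0.683, 0.590, 0.754 and 0.681. All 4 lipid-treated libraries were above all 4 untreated ones, with lipid replicate A the highest, and the groups with lipid spread more widely, with SDs of 0.0766 and 0.0673 against 0.00959 and 0.0136. The ratio was 1.14-fold higher in lipid-treated than in untreated hepatocytes (log2 difference 0.19, p = 0.0286 in a two-sided exact permutation test, the smallest p that 70 reassignments allow; 0.114 adjusted over 4 comparisons). It was 1.15-fold higher in lipid + itaconate-treated than in itaconate-treated hepatocytes (0.20, exact permutation p = 0.0857, adjusted 0.171), with an increase in all 4 letters in both. An exact sign-flip test of the paired letters gave p = 0.125 for each, the smallest it allows. The itaconate differences were 0.03 without lipid (exact permutation p = 0.200, adjusted 0.267) and 0.04 with it (exact permutation p = 0.686). With these sizes a single comparison at the smallest p reaches 0.114 after adjustment, so the adjusted values say little about the lipid differences. Without lipid replicate A the first lipid difference was 0.11. Without lipid + itaconate replicate B the difference for itaconate in the presence of lipid was 0.11 and that for lipid in the presence of itaconate 0.27.

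**Figure D3:**
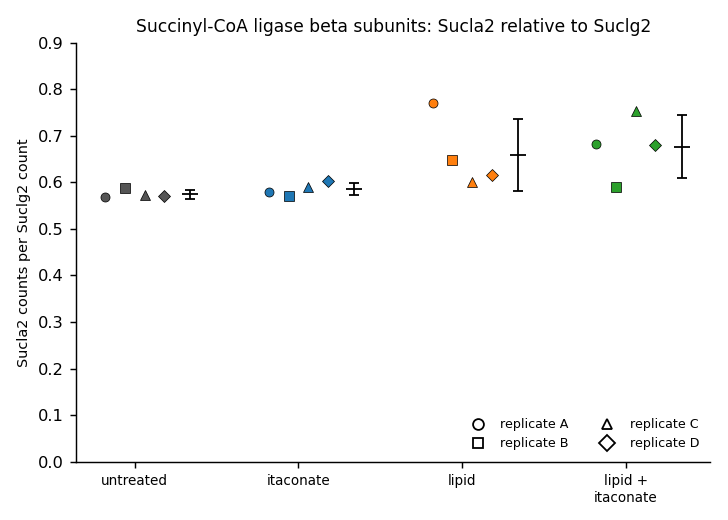
Counts of *Sucla2* per count of *Suclg2* in every library by treatment (linear axis from 0), with marker shapes for the replicate letters and the mean ± SD of 4 libraries beside them. The untreated libraries lie at 0.568 to 0.589, and the lipid-treated ones at 0.601 to 0.770.

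Of the succinate dehydrogenase genes, *Sdha* (ENSMUSG00000021577.14, chromosome 13, 74322254 to 74350280, minus strand) was at 282, 282, 305 and 308 CPM in untreated and at 275, 283, 287 and 291 CPM in itaconate-treated replicates A to D. It was at 274, 277, 272 and 291 CPM with lipid and at 267, 269, 265 and 269 CPM with lipid + itaconate. The lipid + itaconate-treated libraries lay under all other libraries of the series. The log2 difference was −0.08 for lipid (95% interval −0.16 to −0.0012, adjusted p = 0.0882) and −0.09 for lipid in the presence of itaconate (−0.17 to −0.0082, adjusted p = 0.0650), each negative in all 4 letters. DESeq2 put both under the threshold (adjusted p = 0.0427 and 0.0182), and edgeR with RLE normalization the second (0.0371). The second also passed in edgeR without lipid + itaconate replicate A (adjusted p = 0.0453). With itaconate the differences were −0.05 (−0.13 to 0.03) without lipid and −0.06 (−0.14 to 0.02, adjusted p = 0.455) with it, the latter negative in all 4 letters.

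*Sdhd* (ENSMUSG00000000171.5, chromosome 9, 50596357 to 50603812, minus strand) was at 136, 130, 141 and 125 CPM in untreated and at 138, 148, 145 and 144 CPM in itaconate-treated replicates. It was at 141, 144, 145 and 145 CPM with lipid and at 146, 160, 136 and 143 CPM with lipid + itaconate. The untreated libraries were the lowest group on average, and all lipid-treated libraries lay just above the highest untreated one. The log2 difference was 0.12 with itaconate (95% interval 0.01 to 0.22, unadjusted p = 0.0315 in edgeR, adjusted p = 0.187) and 0.12 with lipid (0.01 to 0.22, adjusted p = 0.0655), each positive in all 4 letters. It was 0.02 for itaconate in the presence of lipid and 0.02 for lipid in the presence of itaconate, and both of these became −0.03 without lipid + itaconate replicate B. Both differences from untreated share the same 4 control libraries. The lipid difference passed with the 8 libraries alone (adjusted p = 0.0425), and in 4 of the 16 fits that left out 1 library.

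*Sdhb* (ENSMUSG00000009863.14, chromosome 4, 140961203 to 140979193, plus strand) was at 86.9 ± 2.66, 86.5 ± 5.42, 86.0 ± 2.75 and 84.1 ± 9.02 CPM (SD, n = 4) in untreated, itaconate-treated, lipid-treated and lipid + itaconate-treated hepatocytes, and *Sdhc* (ENSMUSG00000058076.12, chromosome 1, 171127165 to 171150603, minus strand) at 94.8 ± 4.81, 92.4 ± 3.19, 92.3 ± 2.84 and 92.6 ± 3.60 CPM. Their log2 differences ran from −0.04 to −0.0097 for *Sdhb* and from −0.04 to 0.0047 for *Sdhc*, and none exceeded its standard error. Without lipid + itaconate replicate B, that of *Sdhb* was −0.09 for itaconate in the presence of lipid (SE 0.047, adjusted p = 0.364 in edgeR) and −0.10 for lipid in the presence of itaconate (SE 0.047, adjusted p = 0.0959), and both of *Sdhc* became −0.01.

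**Figure D4:**
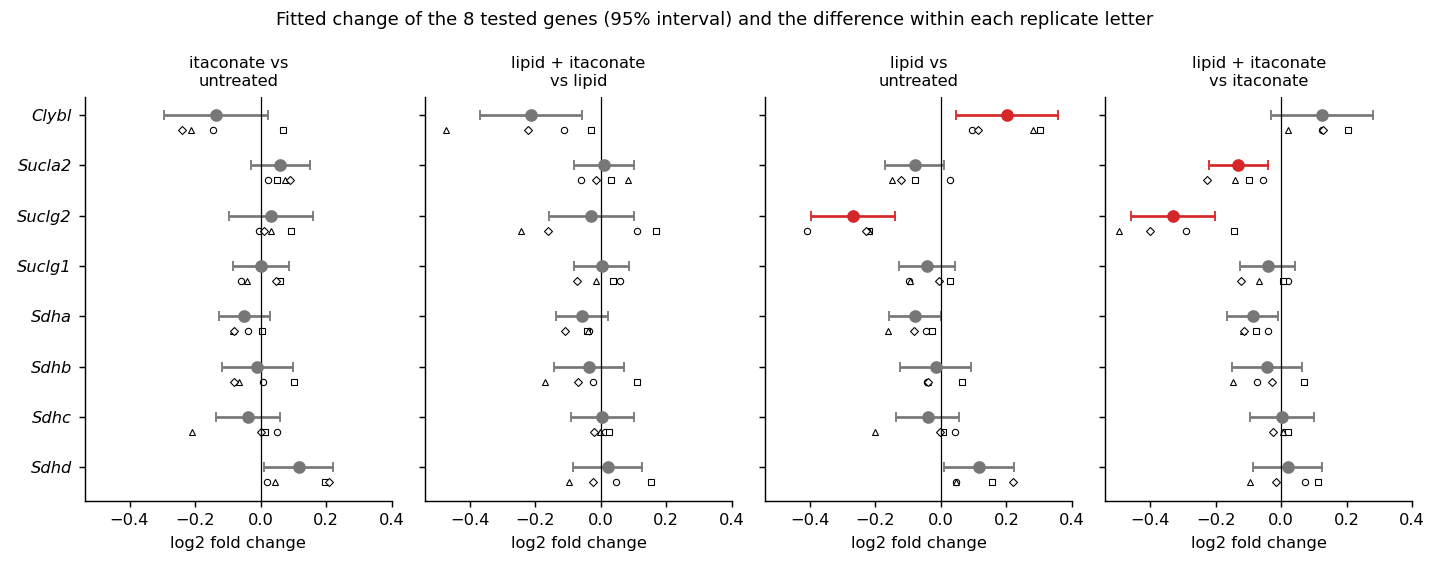
Fitted log2 fold changes of the 8 tested genes in 4 comparisons (large points with 95% intervals, red where the adjusted p is under 0.05) and the difference within each replicate letter (small open marks). Red points are those of *Clybl* and *Suclg2* for lipid against untreated, and of *Sucla2* and *Suclg2* for lipid + itaconate against itaconate.

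Counted over the list, 0 of 8 members were called for itaconate against untreated, where 4.91% of all genes tested were called. There were 0 of 8 for lipid + itaconate against lipid (2.58% of all genes), 2 of 8 for lipid against untreated (47.5%), 2 of 8 for lipid + itaconate against itaconate (47.0%) and 0 of 8 for the interaction of itaconate and lipid (0.00857%). At an unadjusted p under 0.05 in edgeR the counts were 1, 1, 4, 3 and 0 of 8, against 21.3%, 17.3%, 53.9%, 53.8% and 8.6% of all genes tested, and DESeq2 and limma-trend also called 0 members in both itaconate comparisons and for the interaction. The median absolute log2 difference of the members was 0.04 for itaconate and 0.02 for itaconate in the presence of lipid, against 0.09 and 0.08 over all genes tested. For lipid it was 0.08 and, in the presence of itaconate, 0.06, against 0.19 and 0.18. The median standard error in these comparisons was 0.047 to 0.048 for the members and 0.073 over all genes tested. Absolute differences grow with the error, and its part in these medians was not tested. The 95% intervals of the 8 itaconate differences lay between −18.4% and 16.7% of the level without itaconate in the absence of lipid, and between −22.5% and 9.14% in its presence, the widest ends being those of *Clybl* and *Sdhd*. For the interaction the log2 values ran from −0.10 (*Sdhd*) to 0.04 (*Sdhc*), with adjusted p from 0.749 to 0.997.

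Across the 16 libraries, after removal of the mean of each letter, the members' log2 CPM were compared pair by pair as a description. The libraries share their depth scaling and their treatments, so these values follow treatment as well as library. Pearson's r over the 28 pairs ran from −0.66 (*Clybl* and *Sucla2*) to 0.75 (*Suclg2* and *Sdha*), with a median of 0.29 and 21 positive values. *Suclg1* had r = 0.75 with *Suclg2* and 0.53 with *Sucla2*, while *Sdhd* had r = −0.40 with *Sdha*. The gene most like each member was sought among 9300 genes that averaged 5 CPM or more. Duplicated, provisional and accession-like symbols were left out. For *Clybl* it was *Slc13a5*, a citrate transporter of the plasma membrane (r = 0.929), nearly level with *Chmp2a* and *Baiap2* (0.929 each). For *Suclg2* it was *Aldh4a1*, of proline breakdown (0.983), closely followed by *Pigr* (0.982) and *Rala* (0.980). For the other members it was *Adal* for *Sucla2* (0.95), *Atp5f1*, a subunit of ATP synthase, for *Suclg1* (0.88) and *Ndufa9*, a complex I subunit, for *Sdha* (0.95). It was *Abcd3*, a peroxisomal transporter, for *Sdhb* (0.89), *Pam16*, of mitochondrial protein import, for *Sdhc* (0.83) and *Pdik1l* for *Sdhd* (0.93).

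The steps next to these enzymes were followed in 34 further genes, of which 32 passed the filter and *Slc13a2* and *Slc13a3*, plasma membrane dicarboxylate transporters, did not. With itaconate 0 of 32 were called without lipid (8 at an unadjusted p under 0.05 in edgeR) and 2 of 32 with it (10 at that p). Of all genes tested 4.91% and 2.58% were called, and 21.3% and 17.3% had an unadjusted p under 0.05. For the interaction of itaconate and lipid 0 of 32 were called (0.00857% of all genes). At an unadjusted p under 0.05 in edgeR the interaction had 3 of 32, against 8.6% of all genes tested. *Slc13a5* was at 28.4, 32.0, 39.8 and 33.1 CPM in lipid-treated and at 24.8, 29.6, 22.0 and 23.1 CPM in lipid + itaconate-treated replicates A to D. Its log2 difference for itaconate in the presence of lipid was −0.42 (SE 0.10, adjusted p = 0.0379 in edgeR), negative in all 4 letters. *Sucnr1*, the cell surface receptor for succinate, was at 1.18, 0.451, 0.446 and 0.540 CPM with lipid and at 2.70, 2.31, 0.542 and 0.824 CPM with lipid + itaconate, and rose by 1.22 (SE 0.28, adjusted p = 0.0342) in all 4 letters with overlapping groups. Both calls were lost without the replicate letter in the model (adjusted p = 0.241 and 0.391) and with the 8 libraries alone (0.278 and 0.278). With limma-trend that of *Sucnr1* was lost too (adjusted p = 0.0504). Each call passed in 8 of the 16 fits that left out 1 library, with adjusted p up to 0.124 for *Slc13a5* and 0.136 for *Sucnr1*. Without lipid the itaconate differences were −0.19 (adjusted p = 0.293) and 0.61 (adjusted p = 0.152). That of *Sucnr1* without lipid passed with the 8 libraries alone (0.61, adjusted p = 0.0394 in edgeR).

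With lipid 17 of 32 neighbouring genes were called (12 higher, 5 lower), and with lipid in the presence of itaconate 16 of 32 (8 higher, 8 lower), against the backgrounds of 47.5% and 47.0% given for all genes. The largest difference was in *Sucnr1*, at 2.53, 1.33, 0.986 and 1.28 CPM in untreated replicates, which fell by 1.24 on the log2 scale with lipid (adjusted p = 0.00232 in edgeR) and by 0.63 with lipid in the presence of itaconate (adjusted p = 0.0395). Without the replicate letter in the model both calls were lost (adjusted p = 0.0716 and 0.374). The second was also lost with the 8 libraries alone (0.0572) and in 6 of the 16 fits that left out 1 library (itaconate replicates B, C and D and lipid + itaconate replicates A, C and D, adjusted p up to 0.132), and its value ran from −0.92 to −0.45. *Sdhaf4*, an assembly factor that helps SDHA join SDHB, was at 5.43, 4.35, 4.60 and 3.96 CPM in untreated and at 9.22, 7.37, 6.97 and 7.32 CPM in lipid-treated replicates. It rose by 0.76 (SE 0.12, adjusted p = 8.07e-05 in edgeR), and by 0.53 in the presence of itaconate (SE 0.12, adjusted p = 0.00182), with no overlap of groups in both, and no alternative ended either call. The other 3 assembly factors were not called.

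In the propionate route, which delivers succinyl-CoA from odd-chain and branched substrates, 2 of 4 genes were called lower in each lipid comparison. None was called higher, and the highest log2 difference, 0.10 with lipid in the presence of itaconate, was not called. Over all genes tested 47.5% (2779 higher, 2767 lower) and 47.0% (2740 higher, 2743 lower) were called, so 2 of 4 is near the share of all genes. *Mut*, the methylmalonyl-CoA mutase that makes succinyl-CoA, was at 47.4 to 51.3 CPM in untreated and 34.3 to 39.4 CPM in lipid-treated libraries, a fall by 0.39 on the log2 scale (SE 0.049, adjusted p = 1.48e-05 in edgeR). With lipid in the presence of itaconate it fell by 0.45 (adjusted p = 4.33e-06). The other was *Pccb*, a subunit of propionyl-CoA carboxylase. Of the 4 genes that handle the cobalamin cofactor of this mutase, 2 were called higher and 2 lower in each lipid comparison. *Mmaa*, which loads the mutase with cofactor, rose by 0.55 (SE 0.11, adjusted p = 0.000546 in edgeR) with lipid and by 0.29 (adjusted p = 0.0326) with lipid in the presence of itaconate, and *Mmachc* rose while *Mmab* and *Mmadhc* fell. The second call of *Mmaa* was lost without the replicate letter (adjusted p = 0.0588) and in 6 of the 16 fits that left out 1 library (itaconate replicates A, C and D and lipid + itaconate replicates A, B and D, adjusted p up to 0.115).

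Of 10 other citric acid cycle enzymes, 5 were called higher with lipid and none lower, near the 47.5% of all genes tested that were called. The lowest log2 difference with lipid, −0.12, was not called. With lipid in the presence of itaconate 3 were called higher and 1 lower, against 47.0% of all genes called. *Cs* and *Mdh2* were called higher in both comparisons, *Idh3a* and *Fh1* only without itaconate, and *Idh3b* was called lower only in its presence. Among transporters *Slc25a11*, the mitochondrial oxoglutarate carrier, rose in both lipid comparisons, *Slc13a5* rose by 0.36 without itaconate (adjusted p = 0.00727 in edgeR), and *Slc25a10*, the dicarboxylate carrier that moves succinate, fell in the presence of itaconate. *Alas1*, which uses succinyl-CoA to begin heme synthesis, rose in both. *Auh* and *Sugct*, which hydrate and transfer CoA intermediates near the itaconate route, were not called in any comparison. In the GABA shunt *Aldh5a1* was called higher with lipid only without itaconate, and *Abat* was called lower only in its presence. No neighbouring gene was called for the interaction of itaconate and lipid, so a call in a single lipid comparison was not shown to depend on itaconate. Apart from the 5 genes given with values, the called genes of this list that are named were chosen after their values were seen.

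**Figure D5:**
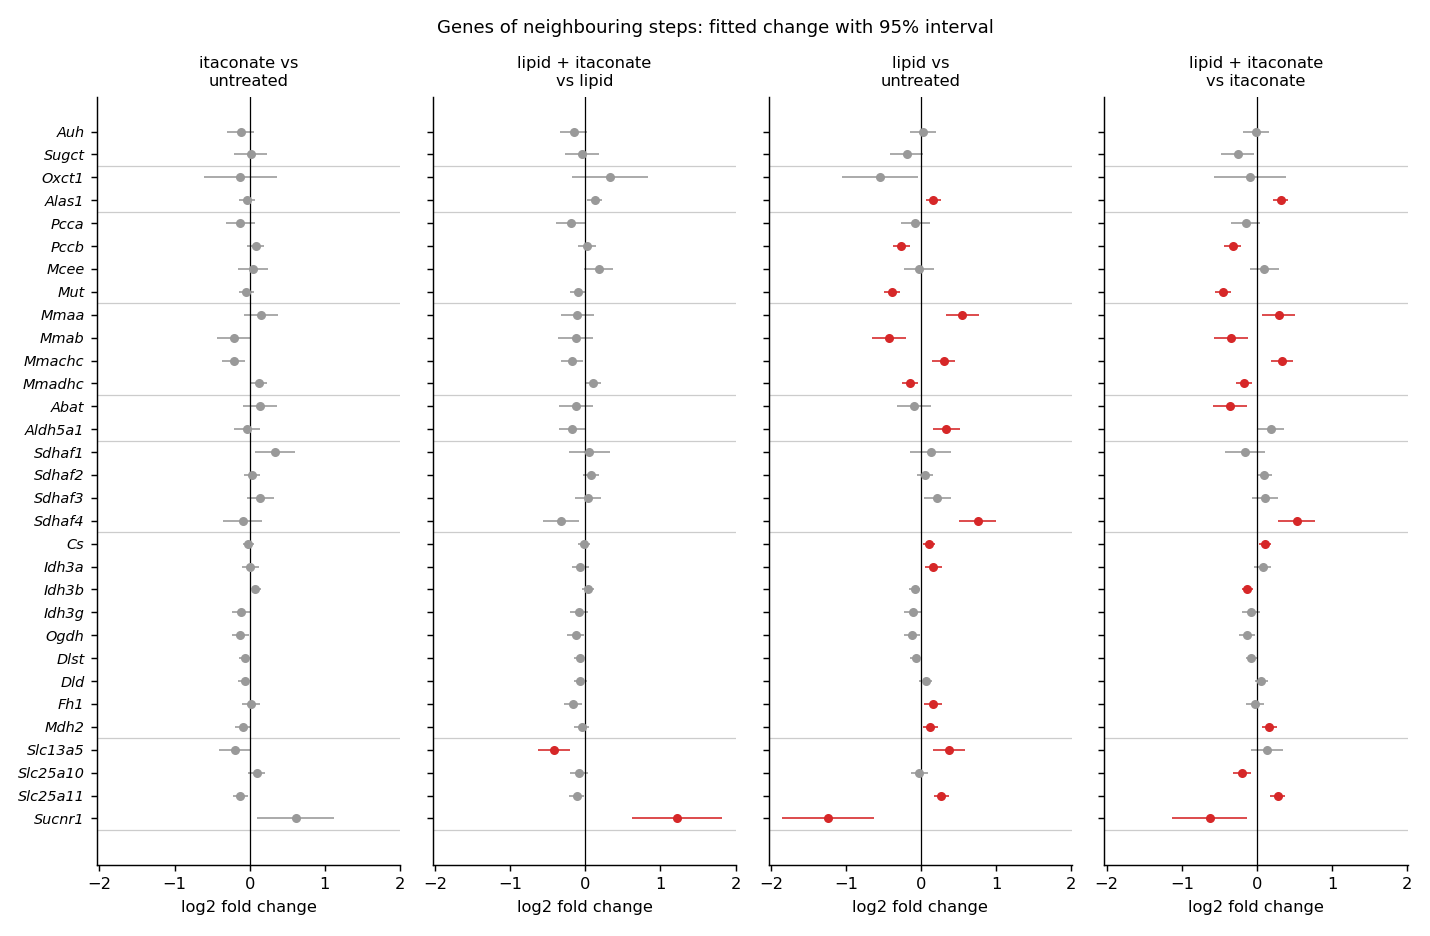
Fitted log2 fold changes with 95% intervals of 31 of the 32 neighbouring genes tested, in 4 comparisons, grouped by role between grey lines and red where the adjusted p is under 0.05. Under itaconate only *Slc13a5* and *Sucnr1* are red, in the presence of lipid, whereas 16 and 15 of the genes drawn are red in the lipid comparisons. None was called for the interaction of itaconate and lipid, which is not drawn.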

How the data were processed

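Poly(A) RNA of 16 libraries was sequenced from a stranded kit. Per the submitters' processing notes and the study's methods, the authors trimmed reads with Cutadapt 1.18, aligned them to mm10 with STAR 2.7.0f and quantified GENCODE genes with RSEM 1.3.1. The deposited values are expected counts per gene, with no normalization, and 5.41% of them are not whole. The GENCODE release and the strand setting are not given in the sources used here. All 55450 gene identifiers matched GENCODE release 21 (GRCm38), which gave positions and lengths.

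The rounded counts were fitted with edgeR 4.0.16 under R 4.3.3 (glmQLFit, glmQLFTest, TMM, log2 prior count 0.5), keeping genes that averaged 1 CPM or more, and with limma 3.58.1 and DESeq2 1.42.0 as alternatives. The replicate letters were taken to pair libraries because all 24 correlations of same-letter deviations from group means were above 0.1 (0.144 to 0.469, median 0.263). The 72 pairs of different letters ran from −0.436 to 0.179 (median −0.114), so the ranges overlapped. Deviations within a group sum to 0, which lowers the values of different letters, so their negative median is no separate support. Intervals use the t distribution of the fit. The members and the lists of neighbouring and marker genes were chosen with earlier results of these data known. Neighbouring genes given with values are those called in an itaconate comparison or the interaction and, in each lipid comparison, the 3 called with the largest absolute change, and others were named after their values were seen. TPM were calculated from expected counts and exon lengths. Alternatives were no letter term, RLE, filterByExpr, no filter, the 8 libraries alone, DESeq2, limma-trend and each library left out. For the count ratio they were a pseudocount of 1 and a sign-flip test. One gene of the neighbouring list is counted but not reported by name here.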

Additional observations from a re-analysis of the deposited data

Results flagged for a closer look

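One value stood apart from its group by Dixon's test at the 95% level. *Suclg2* in itaconate replicate A was at 137 CPM, under the other 3 itaconate-treated libraries at 144 to 145 CPM, with a gap of 0.942 of the range of the group. In all, 40 groups were examined (9 genes and the ratio of *Sucla2* to *Suclg2* in 4 treatments), and chance marks about 1 in 20. No member passed the threshold for the interaction of itaconate and lipid.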

How the results depend on the processing

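*Irg1* was counted at 8 to 42 per library, so its differences have wide intervals. The call of *Suclg2* in both lipid comparisons passed under every alternative run. Over the members and the 5 neighbouring genes given with values, 343 fitted differences kept their direction and their side of the threshold under the alternatives that keep all libraries of a comparison, 12 lost their call, 5 gained one and 4 changed sign. When 1 library was left out, the counts were 763, 34, 6 and 45. The cause of these changes was not tested.

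Without the replicate block, the count of members called for lipid against untreated went from 2 to 1, that of neighbouring genes to 11 for lipid, 9 for lipid in the presence of itaconate and 0 for itaconate in the presence of lipid. The last count was also 0 with the 8 libraries alone and 1 with limma-trend, and for itaconate without lipid the 8 libraries alone gave 3. Members called for lipid in the presence of itaconate were 1 with no filter and 1 with the 8 libraries alone. The count reached 3 with DESeq2 in both lipid comparisons (*Sdha*), with RLE for lipid in the presence of itaconate (*Sdha*) and with the 8 libraries alone for lipid (*Sdhd*). Leaving out 1 library gave 1 to 3 members in each lipid comparison, against 2 in each. The count for lipid was 1 without untreated replicate B, lipid replicate C or lipid replicate D, and that for lipid in the presence of itaconate was 1 without itaconate replicate C, itaconate replicate D or lipid + itaconate replicate D. Neighbouring genes then numbered 0 to 1 for itaconate and 0 to 5 for itaconate in the presence of lipid, with 5 without lipid + itaconate replicate C.

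Of differences close to 0, that of *Sdhc* for lipid in the presence of itaconate became −0.0089 with RLE, −0.00037 with filterByExpr and −0.0089 with DESeq2, and that of *Irg1* for itaconate became 0.066 with limma-trend. With 1 library left out, the differences for itaconate spanned −0.28 to 0.30 for *Irg1*, −0.025 to 0.020 for *Suclg1*, −0.0072 to 0.057 for *Suclg2*, −0.056 to 0.017 for *Sdhb* and −0.061 to 0.020 for *Sdhc*. For itaconate in the presence of lipid they spanned −0.48 to 0.067 for *Irg1*, −0.015 to 0.041 for *Sucla2*, −0.020 to 0.025 for *Suclg1*, −0.10 to 0.031 for *Suclg2*, −0.094 to 0.0071 for *Sdhb*, −0.012 to 0.024 for *Sdhc*, −0.026 to 0.067 for *Sdhd* and −0.013 to 0.12 for the log2 ratio of *Sucla2* to *Suclg2*. For lipid they spanned −0.063 to 0.011 for *Sdhb* and −0.064 to 0.018 for *Sdhc*, and for lipid in the presence of itaconate −0.10 to 0.00052 for *Sdhb*, −0.018 to 0.022 for *Sdhc* and −0.026 to 0.066 for *Sdhd*.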
